A study of Mus musculus with 8 samples.

Results

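Ptgs2 and Il6 were examined as a pair of inflammatory mediator genes in a map of acetylated histone H3 (H3ac) made by chromatin immunoprecipitation and sequencing. The members were all H3ac peaks in 2 windows of 30 kb on mouse build GRCm39, chromosome 1 from 149960000 to 149990000 for Ptgs2 and chromosome 5 from 30200000 to 30230000 for Il6. The windows held 8 of the 193863 peaks in the 4 peak lists. After merging peaks that overlapped between lists they made up 3 of 81544 regions, 1 for Ptgs2 and 2 for Il6. The cells were RAW264.7, a mouse macrophage-like line, labelled with the treatment Gel or CuNZ@Gel, and each treatment had 2 immunoprecipitated libraries. The shared protocol gives an exposure of 48 h to CuNZ@Gel extracts and does not describe the Gel cells separately, so their treatment is known only from the label. No untreated cells are among the groups. Whether replicates 1 and 2 were grown separately is not stated, and replicate spread may therefore be purely technical. The line was not checked against macrophage markers, because peaks are given by position and the annotation used here is of another build.

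Ptgs2 encodes the inducible cyclooxygenase, which converts arachidonic acid to the precursor of the prostaglandins that mediate pain, fever and vasodilation. Il6 encodes interleukin-6, a secreted cytokine that signals through gp130 and STAT3 and drives the acute phase response. In macrophages both genes are induced by Toll-like receptor ligands, and factors of the NF-kappa B, C/EBP, AP-1 and CREB families are known to act at their promoters. Acetylation of histone H3 is found at active promoters and enhancers.

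Part of each promoter is shown, with matches to motifs of these factor families and to others marked. Both sequences are from RefSeq on GRCm38.p6, run from 250 bases before to 50 bases after the annotated transcription start, and lie on the plus strand. Capitals mark matches, on either strand, to a kappa B-type motif (GGGANTTTC), a C/EBP-type motif (TTGNNCAA), the core of the cyclic AMP response element (ACGTCA), an E-box (CACGTG), an AP-1-type motif (TGAGTCA) and a TATA-type motif (TATAAA).
Ptgs2: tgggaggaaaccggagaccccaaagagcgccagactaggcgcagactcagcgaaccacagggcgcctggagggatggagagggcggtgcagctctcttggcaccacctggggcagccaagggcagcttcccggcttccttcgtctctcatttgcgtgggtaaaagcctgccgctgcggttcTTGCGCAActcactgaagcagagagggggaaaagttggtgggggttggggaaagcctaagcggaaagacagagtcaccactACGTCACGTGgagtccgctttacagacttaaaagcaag
Il6: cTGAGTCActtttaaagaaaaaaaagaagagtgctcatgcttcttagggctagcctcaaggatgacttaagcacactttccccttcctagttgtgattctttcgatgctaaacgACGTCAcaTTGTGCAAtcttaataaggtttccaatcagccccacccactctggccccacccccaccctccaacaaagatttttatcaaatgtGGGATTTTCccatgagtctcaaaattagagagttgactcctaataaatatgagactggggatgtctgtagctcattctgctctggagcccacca
The Ptgs2 stretch held 3 matches, none of them kappa B-type or AP-1-type. Its C/EBP-type match began 69 bases before the annotated start. The cyclic AMP response core and the E-box, which overlap each other, began 12 and 16 bases after that start. Other possible starts of the gene were not examined, so these distances hold for the annotated start only. The Il6 promoter held 4 matches, which began 249 (AP-1-type), 136 (cyclic AMP response core), 128 (C/EBP-type) and 44 (kappa B-type) bases before the start. Of the 32851 promoters in the table, 1.11% held the kappa B-type motif, 6.40% the C/EBP-type motif, 7.51% the cyclic AMP response core, 7.15% the E-box, 5.20% the AP-1-type motif and 13.6% the TATA-type motif. The G and C content was 59.3% for Ptgs2 and 44.0% for Il6, against a median of 52.7% over all promoters. The build differs from that of the peaks and coordinates were not converted, so the place of these bases under the peaks is not given. In the same annotation the non-coding gene Ptgs2os is the nearest gene before Ptgs2, and the non-coding gene A230098N10Rik overlaps Il6. A histone mark has no strand, so signal in either window cannot be assigned to one of these genes rather than to its neighbour.

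The lists give for each peak the authors' fold enrichment over background at the summit, the position of highest signal. From fold and p, the whole number of summit fragments and the background under each peak were recovered for 100% of the peaks. The commonest background, taken here as the measure of depth because no read counts were used, was 4.62 fragments in the first and 4.28 in the second Gel library. It was 3.45 and 2.46 in the CuNZ@Gel libraries, which were thus both shallower by this measure. At all 8 member peaks the background was within 1% of the library's own. Background is recovered only under called peaks, so the Il6 window has no such value in CuNZ@Gel.

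H3ac at Ptgs2 was present in all 4 libraries. In both CuNZ@Gel libraries it was split into 2 peaks, covered fewer bases and was lower in fold. In Gel replicate 1 the only peak of the window ran from 149975147 to 149976198, a width of 1052 bp, with a fold of 7.30 and its summit at 149975443. In Gel replicate 2 it ran from 149975123 to 149976214, a width of 1092 bp, with a fold of 7.95 and its summit at 149975430. The Gel libraries thus placed the same single peak with edges 24 and 16 bp apart and summits 13 bp apart. In CuNZ@Gel replicate 1 a first peak ran from 149975191 to 149975682 (492 bp, fold 5.85, summit at 149975496) and a second from 149975888 to 149976124 (237 bp, fold 4.95, summit at 149975994). In CuNZ@Gel replicate 2 the first ran from 149975293 to 149975606 (314 bp, fold 6.07, summit at 149975447) and the second from 149975835 to 149976176 (342 bp, fold 4.63, summit at 149975969). All 4 CuNZ@Gel peaks lay inside the Gel peak, and the first was the stronger of the pair in both libraries.

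**Figure D1:**
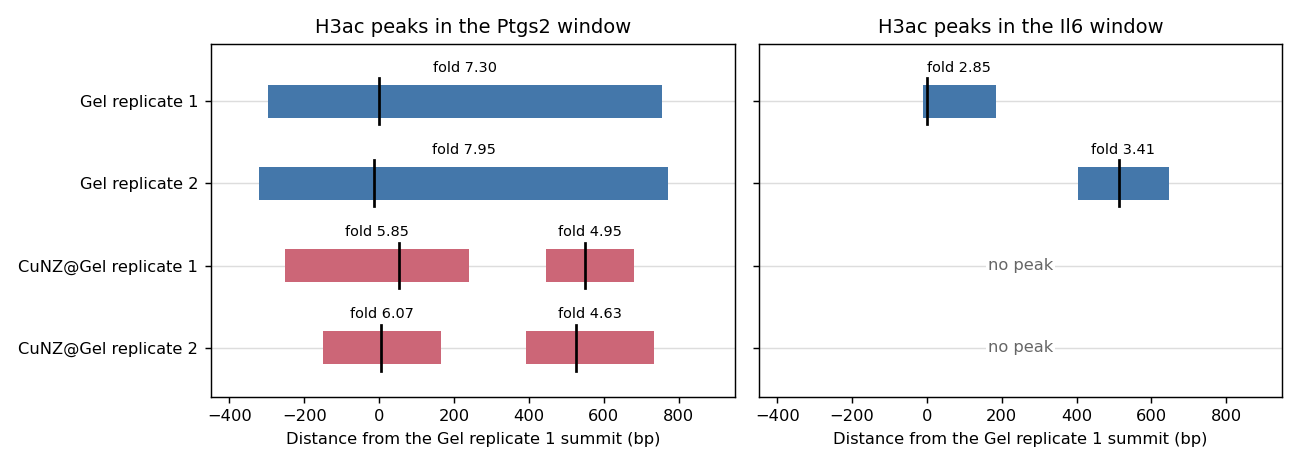
Peaks in the Ptgs2 window (left) and the Il6 window (right), 1 row per library, as bars from start to end against the distance in bp from the summit of Gel replicate 1, with a black line at each summit and the authors' fold above each bar. At Ptgs2 1 peak in each Gel library faces 2 peaks in each CuNZ@Gel library, and at Il6 the peaks of the Gel libraries do not overlap and CuNZ@Gel has none.

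The gap between the 2 CuNZ@Gel peaks at Ptgs2 fell in the same place in both libraries. It measured 205 bp in replicate 1 and 228 bp in replicate 2, and 152 bp from 149975683 to 149975834 were uncovered in both. The first CuNZ@Gel summit lay 53 and 4 bp from the Gel replicate 1 summit, whereas the second lay 551 and 526 bp from it, in the part of the Gel peak away from its summit. The fold of the second peak was 0.846 times that of the first in replicate 1 and 0.762 times in replicate 2. The authors' deposited group lists show the same picture, with 1 interval of 1052 bp for Gel and 2 intervals of 314 and 237 bp for CuNZ@Gel. Those intervals are intersections of the replicate lists and are not a separate call.

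Such splitting was seen at a minority of regions. Of the 18559 regions with 1 peak in each Gel library and peaks in both CuNZ@Gel libraries, 7.16% had 2 or more peaks in each CuNZ@Gel library. The opposite, 1 peak in each CuNZ@Gel library and 2 or more in each Gel library, was found at 0.573% of the 15697 regions where it could be counted. Split regions were mostly wider in Gel than Ptgs2, with a median covered width of 2273 bp against 929 bp for regions that were not split. Among 895 regions of like Gel fold and width that could be counted, 32, or 3.58%, were split. Of the 1328 split regions, 926 had exactly 2 peaks in each CuNZ@Gel library. Their median gap was 230.3 bp (quartiles 194 and 313), and the Ptgs2 mean of 216.5 bp lay within these quartiles. Their median distance between summits was 798 bp (quartiles 591 and 1151), and the mean of 510 bp at Ptgs2 lay below them. The gaps of both libraries overlapped in 82.7% of these 926 regions, as at Ptgs2. A shallower library can break a peak where the signal dips, and the part of depth in the split was not tested.

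Peaks covered 1072 ± 28.3 bp of the Ptgs2 window in Gel (SD, n = 2). In CuNZ@Gel they covered 692.5 ± 51.6 bp (SD, n = 2), or 64.6% of the Gel mean. The 2 groups did not overlap, and the difference of -379.5 bp (CuNZ@Gel minus Gel) exceeded the spread between replicates. The gap between the CuNZ@Gel peaks, 216.5 bp on average, is part of this difference. The narrowing and the split are therefore not independent results. The strongest fold was 7.62 ± 0.457 in Gel and 5.96 ± 0.161 in CuNZ@Gel (SD, n = 2), again without overlap, a difference of -0.35 on the log2 scale. For width, fold and peak number alike, a two-sided exact permutation test gave p = 0.333, which is the smallest that 2 against 2 libraries can give. Non-overlap in this direction was common: of the 21909 regions with peaks in all 4 libraries, 74.5% were narrower in each CuNZ@Gel library than in either Gel library, and 63.2% had a lower strongest fold by the same rule. Fold is computed with a constant added to fragments and to background. At an unchanged height over background it is therefore lower in a library with a lower background, as in both CuNZ@Gel libraries. The difference of -0.35 and the share of 63.2% both rest on this fold, and the share was not recomputed at equal depth. With all libraries scaled to equal depth the fold difference was -0.23 on the log2 scale. At that depth the folds were 6.36 and 7.22 in Gel against 5.50 and 6.07 in CuNZ@Gel. Covered width cannot be recomputed in that way.

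In fragments, the Ptgs2 signal was small in every library. The summit held 40 and 41 fragments in Gel replicates 1 and 2 and 25 and 20 at the first peak in CuNZ@Gel replicates 1 and 2, with 21 and 15 at the second. Divided by the library background these were 8.66 and 9.58 in Gel, 7.25 and 8.13 at the first CuNZ@Gel peak, and 6.09 and 6.10 at the second. The 95% Poisson intervals of the heights, which cover counting error only, ran from 6.19 to 11.8 and from 6.87 to 13.0 in Gel and from 4.69 to 10.7 and from 4.97 to 12.6 at the first CuNZ@Gel peak. All 4 intervals overlapped. Overlap of separate intervals is not a test of a difference, and the counts were not compared directly. Both Gel heights, 8.66 and 9.58, were above both heights at the first CuNZ@Gel peak, 7.25 and 8.13. Whether these heights differ beyond counting error was not tested.

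**Figure D2:**
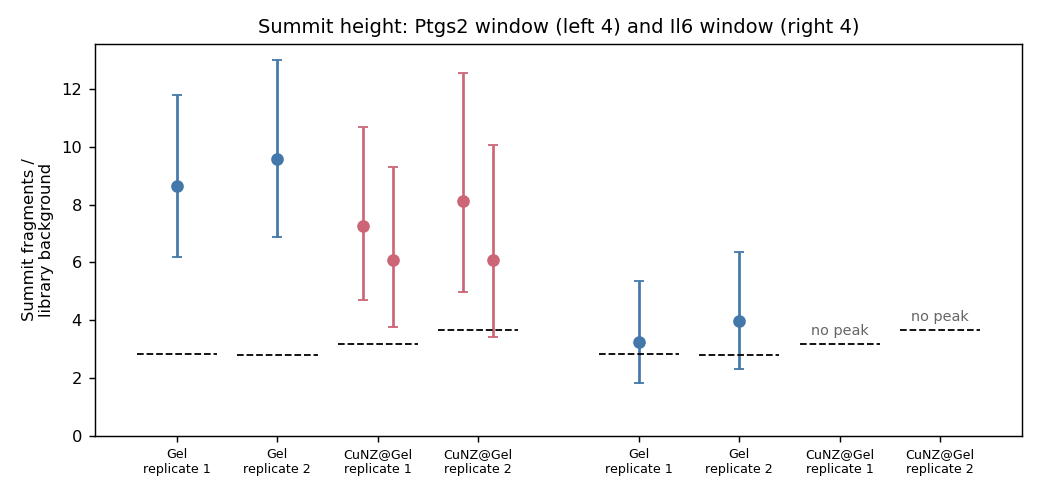
Summit height, as fragments divided by the library background, for every peak in the Ptgs2 window (left 4 libraries) and the Il6 window (right 4 libraries), with 95% Poisson intervals and, as dashed lines, the lowest height that each list called on its usual background. Ptgs2 peaks stand at 6.09 to 9.58, above the dashed lines, while the Il6 peaks of Gel replicates 1 and 2 stand at 3.25 and 3.97, against lines at 2.81 and 2.80.

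Ptgs2 was then set beside regions of like Gel strength. The comparison set was 1001 regions, each called in both Gel lists, whose mean Gel fold was nearest to that of Ptgs2, from 7.29 to 7.96. Of these, 953 (95.2%) had a peak in both CuNZ@Gel libraries, 45 in 1 and 3 in neither. Among all 39317 regions that both Gel lists shared, 24.9% had none in CuNZ@Gel. Ptgs2 was thus among the large majority of its set with a peak in both. The log2 difference of strongest fold was -0.35 at Ptgs2 against a median of -0.37 (quartiles -0.55 and -0.19), and 55.2% of the set had a lower value or no CuNZ@Gel peak in 1 or both libraries. The covered width in CuNZ@Gel was 64.6% of that in Gel at Ptgs2 against a median of 71.0% (quartiles 59.1% and 82.8%), and 36.2% of the regions with peaks in all 4 libraries were narrower still. Both values lay between the quartiles of the set. The covered width at Ptgs2 leaves out its gap, whereas only 5.17% of the 851 regions of the set that could be counted were split.

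The 2 CuNZ@Gel libraries placed Ptgs2 on either side of the median of its set. Against the Gel mean, the strongest fold differed by -0.38 on the log2 scale in CuNZ@Gel replicate 1, where the median of the set was -0.34, and by -0.33 in replicate 2, where the median was -0.41. The covered width was 68.0% of the Gel mean in replicate 1 and 61.2% in replicate 2, against medians of 76.1% and 66.6%. In both libraries the covered width at Ptgs2, which leaves out the gap, was somewhat below the median for regions of like fold. In both, Ptgs2 stayed within the range between the quartiles for fold.

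**Figure D3:**
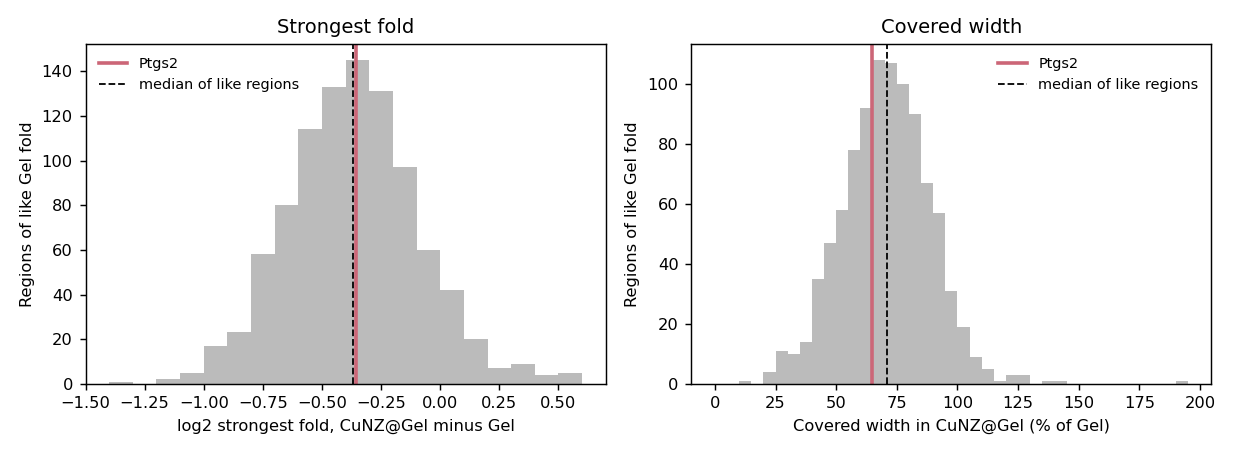
Histograms of the regions of like Gel fold with peaks in all 4 libraries, counted by the log2 difference of strongest fold, CuNZ@Gel minus Gel (left), and by covered width in CuNZ@Gel as a percentage of Gel (right), with Ptgs2 as a red line and the median as a dashed line. Ptgs2 lies at -0.35 beside a median of -0.37, and at 64.6% beside a median of 71.0%.

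H3ac at Il6 was weak in Gel, nearer the limit of calling in replicate 1 than in replicate 2, and no peak was called in CuNZ@Gel. In Gel replicate 1 the only peak of the window ran from 30217895 to 30218090, a width of 196 bp, with a fold of 2.85, a −log10 q of 2.58 and its summit at 30217906. In Gel replicate 2 the only peak ran from 30218311 to 30218551, a width of 241 bp, with a fold of 3.41, a −log10 q of 4.08 and its summit at 30218418. CuNZ@Gel replicates 1 and 2 had no peak in the window. The 2 Gel peaks did not overlap: 220 bp lay between them, and no base of the Il6 window was covered in both Gel libraries. The authors' deposited group lists accordingly hold no interval in this window for Gel or for CuNZ@Gel.

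The Il6 peaks were among the weaker ones of their lists. In Gel replicate 1, 9.62% of the peaks had a lower fold and 10.3% were narrower, and in Gel replicate 2 these shares were 35.0% and 21.0%. By contrast, the Ptgs2 peak exceeded 78.6% and 81.5% of the peaks of those lists in fold. The Il6 summits held 15 and 17 fragments, where the fewest that these lists called on their usual background were 13 and 12. The summits of the 2 Gel peaks at Il6, each called in a different library, were 512 bp apart. The 498 and 522 bp between paired CuNZ@Gel summits at Ptgs2 were measured within a library and are not a like measure. Whether these spacings are related was not tested. Of the 16841 Gel replicate 1 peaks that no Gel replicate 2 peak overlapped, 4.93% had such an unshared Gel replicate 2 peak within 220 bp. In the opposite direction it was 4.39% of 18821. The limit of 220 bp is the gap at Il6 itself and the peaks are of all folds. These shares therefore describe how often such pairs occur and do not test the pair at Il6.

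The covered width in the Il6 window was 218.5 ± 31.8 bp in Gel (SD, n = 2) and 0 bp in both CuNZ@Gel libraries. The groups did not overlap, and a two-sided exact permutation test gave p = 0.333, the smallest possible here, for width and for peak number. Of the 20443 tiles of 30 kb, the length of the window, with a peak in both Gel libraries, 12.4% had none in either CuNZ@Gel library. Of the 5283 tiles that, like the Il6 window, held 1 peak in each Gel library, 26.3% had none. Most of the genome was empty by this measure, with no peak in any library in 69.6% of 87793 tiles.

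Absence of a CuNZ@Gel peak was the usual outcome for Gel peaks of this strength. In Gel replicate 1, 3103 other peaks had the same fold of 2.85 as the Il6 peak. Of these, 30.3% overlapped a peak of Gel replicate 2, 9.54% one of CuNZ@Gel replicate 1 and 5.58% one of CuNZ@Gel replicate 2, and 86.5% overlapped none in CuNZ@Gel. In Gel replicate 2, 3274 other peaks had the same fold of 3.41 as the Il6 peak, of which 49.1% overlapped a peak of Gel replicate 1, 19.5% one of CuNZ@Gel replicate 1 and 12.2% one of CuNZ@Gel replicate 2, and 74.0% overlapped none in CuNZ@Gel. Both Il6 peaks belonged to the class found in a single library. That class made up 24.6% of all Gel replicate 1 peaks and 27.3% of all Gel replicate 2 peaks, and 63.6% and 44.0% of the peaks with the fold of the Il6 peak.

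**Figure D4:**
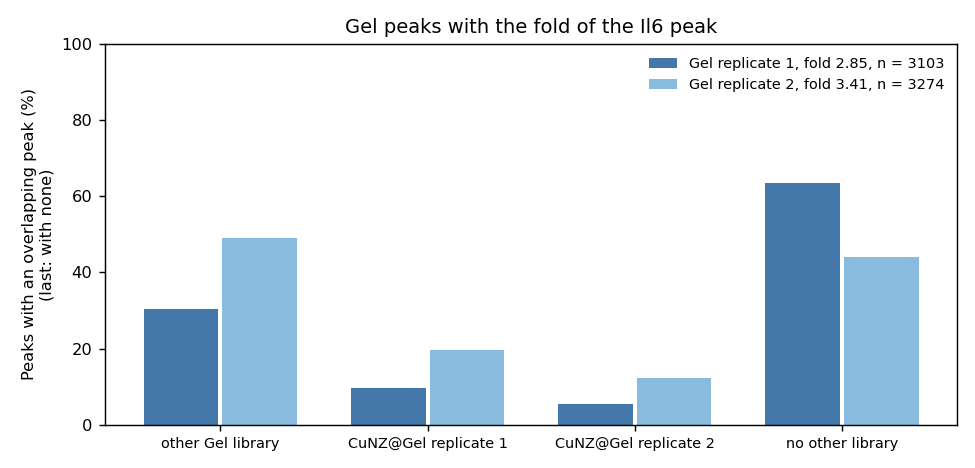
Percentage of Gel peaks with the same fold as the Il6 peak that overlap a peak of each other library, and, at the right, that overlap none, for Gel replicate 1 (dark) and Gel replicate 2 (light). At this strength 63.6% and 44.0% were found in a single library, and 5.58% to 19.5% recurred in a given CuNZ@Gel library.

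At the depth of the CuNZ@Gel libraries, a peak as high as those of Gel at Il6 would mostly have stood near the limit of calling. With an unchanged height over background, the Gel replicate 1 peak would have given 11.2 fragments in CuNZ@Gel replicate 1, where 11 were the fewest called, and 7.99 in replicate 2, where 9 were the fewest called. For the Gel replicate 2 peak the values were 13.7 and 9.77 fragments. With all libraries scaled to the depth of CuNZ@Gel replicate 2, the Gel replicate 1 peak was no longer called, with 8 fragments and a −log10 p of 2.99 against a limit of 3.41, and the Gel replicate 2 peak was, with 10 fragments and 4.27. Of the 4 same-height values, 7.99 thus lay below the fewest fragments called, and 11.2 and 9.77 lay just above it. The value of 13.7 lay further above, where 11 were the fewest called. At counts this low, counting error alone can move a peak across the limit, so the absence of a call does not show a loss of H3ac at Il6.

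The nearest peaks outside the Ptgs2 window were 49.8 to 50.4 kb to its right and at least 122 kb to its left in the 4 libraries. To the right of the Il6 window the nearest peak was 14.9 to 15.2 kb away, with folds of 4.09 and 6.43 in Gel and 3.82 and 2.85 in CuNZ@Gel replicates 1 and 2. The next peak, 46.8 to 47.8 kb away, had folds of 14.2 and 12.7 in Gel and 5.40 and 8.10 in CuNZ@Gel. To its left the nearest peak was 47.2 kb away in both Gel libraries, with folds of 3.03 and 3.41, and 255 and 257 kb away in CuNZ@Gel. These peaks lay outside the windows and were not assigned to a gene.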

How the data were processed

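H3ac peak lists of RAW264.7 cells were used, 1 for each of 2 Gel and 2 CuNZ@Gel libraries. The 4 input libraries were not used here. Per the labels' protocols, the exposure lasted 48 h, fixation took 10 min in 1% formaldehyde, and shearing gave fragments of 150 to 350 bp. The submitters' processing notes name the build GRCm39 and the tools MACS2 2.2.8, SAMtools 1.17, deepTools 3.5.6 and fastp. No aligner or calling option was given there. The deposited lists, called per library, hold a fold enrichment ratio, a −log10 p, a −log10 q and a score for each peak, and these are the authors' own values. The lists reach down to a −log10 q that corresponds to a q-value of 0.05. The authors' deposited group lists equal, in 100% of entries, the intersections of the replicate lists.

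Peaks on the 19 autosomes, X and Y were merged where they overlapped by 1 bp or more. Coordinates are 1-based. Summit fragments and background were solved from fold and the Poisson p, within a relative tolerance of 0.0001. Fold was taken as fragments plus 1 over background plus 1. On 5000 simulated peaks 100% were recovered, which checks the solving and not whether this relation holds in the real libraries. Groups were compared by an exact permutation test over 6 assignments. For Ptgs2, regions of like Gel fold were the nearest 1000 shared by both Gel lists, with all ties kept. The Il6 peaks form no region shared by both Gel lists, so each was set against the peaks of its own list with the same fold, and the comparison with them is a description without a test. At equal depth, fragments and background were scaled to a background of 2.46 and peaks kept at a −log10 p of at least 3.41. No library pair within a group shared an identical peak. Calculations used Python 3.11.15, numpy 2.4.6, pandas 2.3.3 and scipy 1.17.1. The only genes named with values are Ptgs2 and Il6, by their windows. The lists of other prostanoid and interleukin-6 pathway genes and of cell type markers were left out, because the gene table is of build GRCm38. The members and lists were chosen with earlier results of these data known.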

Additional observations from a re-analysis of the deposited data

How the results depend on the processing

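Leaving out 1 library in turn gave -343 to -416 bp for covered width and -0.29 to -0.42 (log2) for strongest fold at Ptgs2, and -196 to -241 bp at Il6; since the groups do not overlap, this could not reverse a direction. The covered width and peak number at Ptgs2 were unchanged with a −log10 q of at least 2, with peaks wholly inside the window and with windows widened by 10 kb on each side. All Ptgs2 peaks were also kept at equal depth, but that scaling can only keep or drop a called peak and cannot resize, split or join one, so it does not test the width or the split. The strongest fold at Ptgs2 moved from -0.35 to -0.23 on the log2 scale at equal depth. At Il6, equal depth left 1 Gel peak, which changed the difference of covered width from -218.5 to -120.5 bp and that of peak number from -1 to -0.5, with an exact permutation p of 1 for both. No fold difference was computed at Il6, where CuNZ@Gel had no peak.

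The share of like regions below Ptgs2, 55.2%, was 54.3% to 56.7% in the other settings with all libraries, and 44.9% to 61.3% without 1 CuNZ@Gel library. The share of peaks with the fold of the Il6 peak and no CuNZ@Gel peak was 80.1% over both Gel lists (also for the nearest 500 and 2000, which ties make the same set), 84.3% with like width, 83.3% at 50% overlap, 81.2% with a −log10 q of at least 2, 71.5% at equal depth (Gel replicate 2 only) and 85.3% to 91.0% without 1 CuNZ@Gel library. In the paired fit, with a replicate block, the differences were the same, -379.5 bp for the covered width at Ptgs2, with an exact sign-flip p of 0.5, the smallest that 2 pairs can give. Differences between replicates 1 and 2 correlated at 0.0030 between the groups over 21909 regions, which gives no sign that equal numbers mark paired libraries. Summits of 15 to 41 fragments limit what can be told from single libraries.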
